A study of Mus musculus with 9 samples.

Results

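The non-ELR CXC chemokines followed here were Cxcl9, Cxcl10, Cxcl11, Cxcl12, Cxcl14 and Cxcl16, measured in mouse bone marrow-derived macrophages (BMDMs) that were left untreated, given tenascin C (TNC) after vehicle, or given TNC after an inhibitor of Toll-like receptor 4 (TLR4i). They were chosen by name, as the probe sets that the platform annotation assigns to 1 of these 6 symbols and to no other gene. This gave 12 of 45037 probe sets and 6 of 18193 genes. All 6 genes had at least 1 probe set, and none was removed by a filter on low values.

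CXC chemokines are small secreted proteins that direct the migration of leukocytes, and those without a glutamate-leucine-arginine motif ahead of their first cysteine mostly attract lymphocytes and monocytes rather than neutrophils. Cxcl9, Cxcl10 and Cxcl11 are induced by interferons, are encoded side by side and share the receptor Cxcr3 of activated T and NK cells. Cxcl12 is the homeostatic ligand of Cxcr4, Cxcl14 is a homeostatic chemokine of epithelia and other tissues, and Cxcl16 is a membrane-anchored ligand of Cxcr6 that is shed by proteases. TLR4, a receptor for bacterial lipopolysaccharide that also responds to matrix proteins such as TNC, signals through MyD88 to NF-kB and through TRIF to interferon regulatory factors and type I interferon.

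BMDMs are macrophages that differentiate in culture from marrow cells under the growth factor M-CSF. All 9 arrays came from marrow of BALB/c mice aged 8 to 10 weeks, cultured for 7 days with M-CSF and then overnight in 1% serum with M-CSF. The labels give M-CSF at 20 µg/ml for both steps, whereas the methods of the study give that unit only for the overnight step and ng/ml for the culture before it. The 3 untreated arrays carry no named addition. The 3 TNC + vehicle arrays had 0.1% DMSO for 1 h, followed by recombinant TNC at 2 µg/ml for 6 h, and the 3 TNC + TLR4i arrays had 3 µM TAK-242, which binds TLR4 inside the cell, for 1 h before the same TNC. The labels do not say whether untreated cells had vehicle, and none of the groups is labelled as an endotoxin control or as given only vehicle or only inhibitor. If untreated cells had none, TNC and vehicle cannot be told apart in TNC + vehicle against untreated. In TNC + TLR4i against untreated, TNC and inhibitor cannot be told apart in either case. The arrays of a group are labelled as biological replicates without mention of separate mice, so the p-values measure the spread between these arrays, which may be partly technical.

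Values are log2 signals after robust multiarray averaging (RMA), on which a difference of 1 is a doubling. Array medians lay between 6.72 and 6.74, and arrays of a group correlated at 0.9940 or more across probe sets. The mean signal of 8 macrophage markers was 12.48 to 12.51 in untreated arrays. It was 12.55 to 12.63 in TNC + vehicle and 12.40 to 12.47 in TNC + TLR4i. Csf1r, Adgre1 and Lyz2 were at 12.89 or above on all 9 arrays, and Mertk at 8.59 to 9.02. Of the 8, 1 was called higher with TNC, Fcgr1 (0.94 ± 0.09; adjusted p = 1.62e-05), against 3.74% of all genes, and 0 lower. With TLR4i 2 were called lower than in TNC + vehicle, Fcgr1 (-1.15 ± 0.09) and Cd14 (-0.61 ± 0.07), against 4.05%, and 0 higher. The mean of 8 fibroblast and stromal markers was 9.14 to 9.58, with the collagen gene Col1a2 at 13.12 to 13.37 and Lum at 6.40 to 6.88. Genes named from the marker lists were chosen after their values were seen. TNC + vehicle replicate 1 stood apart in 9 of 10 endothelial markers, which exceeded there the mean of the 2 arrays sharing its treatment by a median of 0.64. The mean endothelial signal was 7.58 on that array, 6.97 on both others of the group and 6.70 to 6.78 on the remaining 6 arrays, so that replicates 2 and 3 were also above every array without TNC + vehicle. Across groups, 1 of the 10 was called higher with TNC, against 3.74% of all genes (median 0.36, and 0.01 for all genes). With TLR4i 2 were called lower than with TNC + vehicle, against 4.05% of all genes (median -0.48, and 0.00 for all genes). Both list medians include replicate 1. Kdr, a receptor for vascular endothelial growth factor and the 1 marker not higher in replicate 1, was above all untreated arrays in all 3 TNC + vehicle arrays, with means of 7.75 and 9.39 (1.63 ± 0.14; adjusted p = 3.53e-06), and differed by -1.96 ± 0.14 with TLR4i. Kdr is 1 of the 10 markers in the mean endothelial signal. It read 9.58 and 9.59 in replicates 2 and 3, against 7.63 to 7.84 in untreated arrays. A mean without Kdr was not taken. Against untreated, the other markers had no common direction in these 2 arrays. Pecam1 read 7.45 in replicate 1, 6.43 and 6.42 in replicates 2 and 3, and 6.51, 6.51 and 6.33 in untreated arrays. Cdh5 read 7.555, 6.89 and 6.56 in replicates 1 to 3, against 6.38, 6.35 and 6.58. Like Kdr, it was called lower with TLR4i than with TNC + vehicle (-0.63 ± 0.18; adjusted p = 0.0268). Esam read 7.97, 6.92 and 6.89 against 6.88, 6.82 and 6.88. Vwf read 8.25, 7.93 and 7.68 against 8.16, 8.36 and 8.36. The part of endothelial cells in the chemokine changes, which run the same way as Kdr, was not tested. In bulk RNA, fewer cells of a type and less RNA per cell cannot be told apart.

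The first question was how these chemokines respond to TNC. A gene was called when limma's adjusted p was under 0.05 and the change at least 1.5-fold. With TNC + vehicle the 3 interferon-inducible ligands rose 14.7- to 16.5-fold, whereas Cxcl12, Cxcl14 and Cxcl16 stayed within 1.29-fold of untreated on the probe sets that represent them. Of the 6 genes, 3 were called higher, against 3.74% of all genes called higher in this comparison. limma called 0 lower (1 at an unadjusted p under 0.05), against 4.05% of all genes called lower. The median log2 difference was 2.12 for the 6 genes and 0.01 for all genes.

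**Figure D1:**
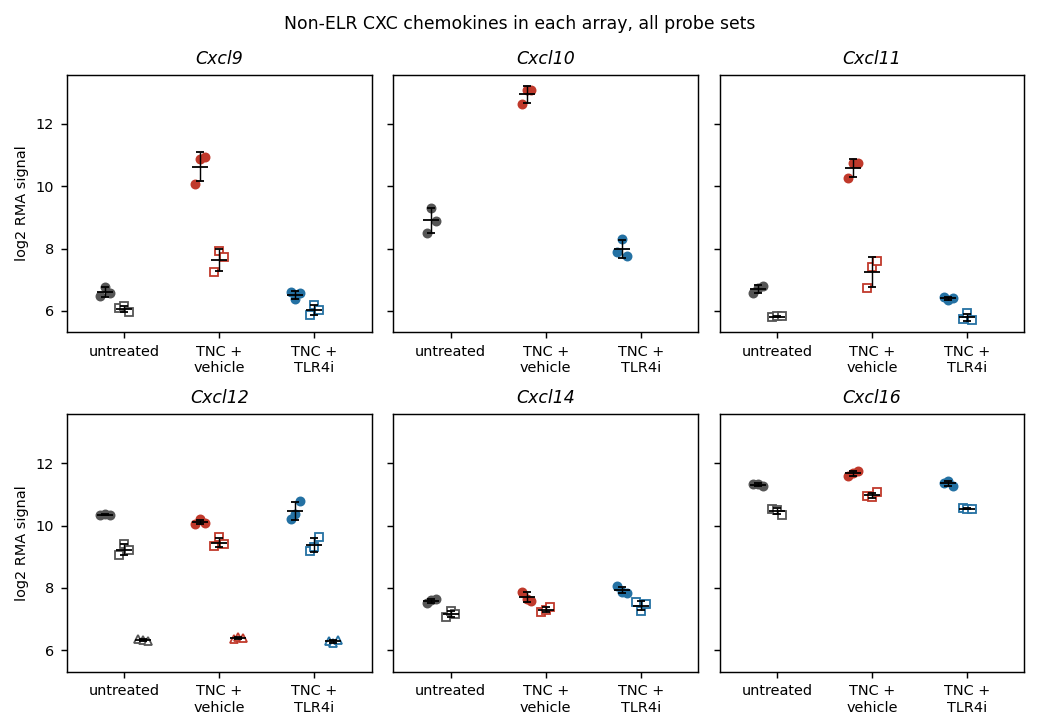
log2 RMA signal of each probe set of the 6 chemokines in each of the 9 arrays, with group mean and SD (n = 3). Filled circles are the brightest probe set of a gene, which represents it, and open squares and triangles are its other probe sets. Cxcl9, Cxcl10 and Cxcl11 are high in all 3 TNC + vehicle arrays, while the other genes differ little between groups.

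Cxcl9, also known as MIG, is the ligand most closely tied to interferon gamma. Its representative probe set read 6.47, 6.77 and 6.59 in untreated arrays, 10.09, 10.86 and 10.95 in TNC + vehicle and 6.62, 6.38 and 6.56 in TNC + TLR4i. All 3 TNC + vehicle arrays were above the other 6, replicate 1 was the lowest of them, and untreated and TNC + TLR4i arrays overlapped. The mean rose from 6.61 ± 0.15 (SD, n = 3) to 10.63 ± 0.47 (n = 3), a log2 difference of 4.02 ± 0.18 (SE; limma adjusted p = 3.37e-08) and the eighth largest rise of all genes. The second, dimmer probe set of Cxcl9 moved the same way by less, from 6.08, 6.14 and 5.95 to 7.25, 7.92 and 7.73 (1.57 ± 0.14; adjusted p = 5.37e-06).

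Cxcl10, also known as IP-10, is made by many cell types after interferon or TLR signals. Its single probe set read 8.51, 9.32 and 8.90 in untreated arrays, 12.65, 13.10 and 13.10 in TNC + vehicle and 7.88, 8.31 and 7.78 in TNC + TLR4i. The groups did not overlap: every TNC + vehicle array was above every untreated array, and every TNC + TLR4i array was below every untreated array. The log2 difference of TNC + vehicle from untreated was 4.04 ± 0.17 (adjusted p = 2.68e-08), a 16.5-fold rise and the fifth largest of all genes.

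Cxcl11, also known as I-TAC, is the ligand with the highest affinity for Cxcr3. It read 6.56, 6.74 and 6.81 in untreated arrays, 10.26, 10.74 and 10.74 in TNC + vehicle and 6.44, 6.36 and 6.42 in TNC + TLR4i. Again the 3 TNC + vehicle arrays lay far above the rest. On this, its brighter probe set, the TNC + TLR4i arrays lay just under the untreated ones without overlap. The rise was 3.88 ± 0.12 (adjusted p = 2.77e-09), or 14.7-fold, and its dimmer probe set rose by 1.44 ± 0.17 (adjusted p = 7.49e-05). The RefSeq table used here lists Cxcl11 as a transcribed pseudogene in its own reference strain. These cells were BALB/c, and no protein was measured.

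The rises of the 3 ligands could not be told apart in size. Cxcl9 minus Cxcl10 was -0.02 ± 0.19 on the log2 scale (SE over 6 arrays; exact permutation p = 0.9, two-sided), Cxcl9 minus Cxcl11 was 0.15 ± 0.13 (exact p = 0.3) and Cxcl10 minus Cxcl11 was 0.16 ± 0.19 (exact p = 0.4). With 3 arrays against 3 the smallest exact p is 0.1. Untreated Cxcl9 and Cxcl11 signals lay around the array median, where RMA compresses dim signals towards a floor, and their folds may be understated and a similar fold does not show a similar change of RNA. With a gene's probe sets averaged, the rise was 2.80 for Cxcl9 and 2.66 for Cxcl11. TNC + vehicle replicate 1 was lower than the mean of the other 2 arrays by 0.82 for Cxcl9, 0.45 for Cxcl10 and 0.49 for Cxcl11, and without it the rises were 4.30, 4.19 and 4.04.

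Of the remaining ligands, Cxcl16 was the only one with every probe set past the p threshold. This transmembrane chemokine, which also binds oxidised lipoprotein as a scavenger receptor, read 11.35, 11.32 and 11.26 in untreated arrays, 11.59, 11.68 and 11.76 in TNC + vehicle and 11.38, 11.43 and 11.27 in TNC + TLR4i. All 3 TNC + vehicle arrays were above the other 6. The difference from untreated was 0.36 ± 0.07 (adjusted p = 0.00237), or 1.29-fold, and 0.51 ± 0.08 (adjusted p = 0.000409), or 1.42-fold, on the other probe set. Both passed the p threshold and both were under the fold threshold.

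Cxcl12, also known as SDF-1, retains haematopoietic progenitors in marrow and is made chiefly by stromal cells. Its brightest probe set read 10.34, 10.37 and 10.35 in untreated arrays, 10.06, 10.20 and 10.10 in TNC + vehicle and 10.23, 10.39 and 10.80 in TNC + TLR4i. The TNC + vehicle arrays were the lowest, and the TNC + TLR4i arrays spread widely through replicate 3. The difference of TNC + vehicle from untreated was -0.23 ± 0.07 (adjusted p = 0.0244), under the fold threshold. The second probe set went the other way, from 9.05, 9.40 and 9.23 to 9.34, 9.62 and 9.40 (0.23 ± 0.10; adjusted p = 0.137), and the third, dimmest one differed by 0.06 (adjusted p = 0.585), so the probe sets gave Cxcl12 no common direction.

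Cxcl14, also known as BRAK, read 7.52, 7.62 and 7.65 in untreated arrays, 7.88, 7.63 and 7.58 in TNC + vehicle and 8.05, 7.88 and 7.85 in TNC + TLR4i. TNC + vehicle overlapped the untreated arrays, and TNC + vehicle replicate 1 was level with the TNC + TLR4i arrays. The difference of TNC + vehicle from untreated was 0.10 ± 0.09 (adjusted p = 0.459) on this probe set and 0.14 ± 0.07 (adjusted p = 0.239) on the other. limma called 0 of 8 fibroblast and stromal markers in either direction with TNC (5 passed an unadjusted p under 0.05, 3 of them upwards). They were at a median of 0.32 higher in TNC + vehicle replicate 1 than in the other 2 arrays of its group, 7 of 8 being higher there, while Cxcl12 was 0.09 lower and Cxcl14 0.27 higher. Without that array the TNC differences were -0.20 for Cxcl12 (adjusted p = 0.0691) and 0.01 for Cxcl14. The part of stromal cells in the signals of Cxcl12 and Cxcl14 was not tested.

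The second question was how much of this response remained when TLR4 was inhibited. In TNC + TLR4i against TNC + vehicle the same 3 ligands were the ones called lower, against 4.05% of all genes called lower, and they fell to near or below the untreated level. limma called 0 of the 6 higher (2 at an unadjusted p under 0.05), against 4.25% of all genes called higher. The median log2 difference was -2.22 for the 6 genes and 0.00 for all genes. This comparison shares the TNC + vehicle arrays with the previous one, so the values of both are set side by side and are not independent.

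Cxcl10 had a log2 difference of -4.96 ± 0.14 (adjusted p = 3.78e-10), which made it 31.1-fold lower and the fourth largest fall of all genes. The differences of Cxcl9 and Cxcl11 were -4.11 ± 0.18 (adjusted p = 9.04e-09), or 17.3-fold lower, and -4.17 ± 0.11 (adjusted p = 2.19e-10), or 18.1-fold lower. As measured, the fall of Cxcl10 was larger than that of Cxcl9 by 0.85 ± 0.26 and than that of Cxcl11 by 0.79 ± 0.18 (exact permutation p = 0.1 for each, two-sided; 0.3 after adjustment over the 6 pairs compared), where 0.1 is the smallest p this design allows. Cxcl9 and Cxcl11 differed by 0.06 ± 0.12 (exact p = 0.7). The TNC + TLR4i signals of Cxcl9 and Cxcl11 were all below the array median, near the RMA floor, so their falls may be cut short and these differences cannot show that Cxcl10 RNA fell further. The dimmer probe sets of Cxcl9 and Cxcl11 differed by -1.61 ± 0.14 (adjusted p = 4.51e-06) and -1.45 ± 0.17 (adjusted p = 5.86e-05), and with probe sets averaged the differences of these genes were -2.86 and -2.81.

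**Figure D2:**
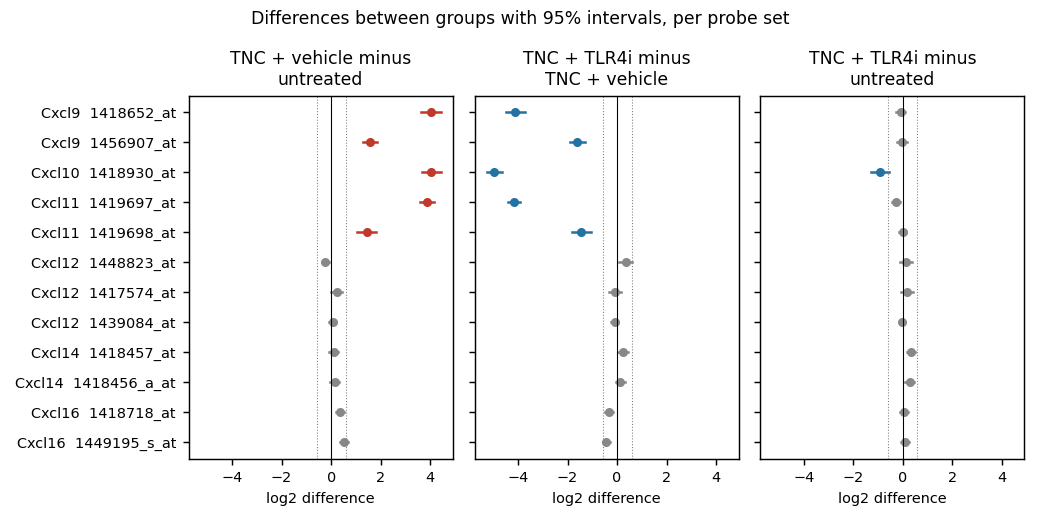
log2 differences between groups for each of the 12 probe sets, with 95% intervals from limma, in the 3 comparisons. Colour marks probe sets past both thresholds, and dotted lines mark a 1.5-fold change. The 5 probe sets of Cxcl9, Cxcl10 and Cxcl11 rise with TNC and fall with TLR4i, and Cxcl10 alone stays coloured, and lower, in TNC + TLR4i against untreated.

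Cxcl16 was lower in TNC + TLR4i than in TNC + vehicle by values under the fold threshold. The difference was -0.32 ± 0.07 (adjusted p = 0.00781) on 1 probe set and -0.43 ± 0.07 (adjusted p = 0.000557) on the other, and the groups did not overlap. Cxcl12 was higher by 0.35 ± 0.12 on its brightest probe set (adjusted p = 0.0548), by 0.19 without TNC + TLR4i replicate 3 (adjusted p = 0.177) and by 0.47 without TNC + TLR4i replicate 1 (adjusted p = 0.0154), while its second differed by -0.08 (adjusted p = 0.693). Cxcl14 differed by 0.23 ± 0.09 (adjusted p = 0.096). Without TNC + vehicle replicate 1 the Cxcl14 difference was 0.32 (adjusted p = 0.0157), still under 1.5-fold.

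The third comparison, TNC + TLR4i against untreated cells, asked what differed when both the stimulus and the inhibitor were present. Cxcl10 was the only 1 of the 6 genes called lower, against 0.198% of all genes called lower. limma called 0 higher (1 at an unadjusted p under 0.05), against 0.0605% of all genes called higher. The Cxcl10 mean was 7.99 ± 0.28 (n = 3) in TNC + TLR4i and 8.91 ± 0.40 (n = 3) in untreated arrays, a log2 difference of -0.92 ± 0.17 (95% interval -1.29 to -0.55; adjusted p = 0.0324), or 1.89-fold lower. It was the ninth largest fall of all genes in this comparison. The call depended on single arrays: without untreated replicate 2 the difference was -0.72 (adjusted p = 0.0726), without untreated replicate 3 it was -0.93 (adjusted p = 0.116), and without TNC + TLR4i replicate 1 or 3 it was -0.87 (adjusted p = 0.175) or -0.82 (adjusted p = 0.161).

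Cxcl11 was lower than untreated by 0.30 ± 0.07 on its brighter probe set, without overlap between the groups, and was not called (adjusted p = 0.148). Its dimmer probe set differed by -0.02 ± 0.07 with overlap (adjusted p = 0.981). Cxcl9 differed by -0.09 ± 0.09 (95% interval -0.28 to 0.10; adjusted p = 0.877). Cxcl14 was higher in all 3 TNC + TLR4i arrays than in any untreated array, by 0.33 ± 0.07 (adjusted p = 0.0745). Cxcl12 and Cxcl16 differed by 0.12 ± 0.11 (adjusted p = 0.875) and 0.05 (adjusted p = 0.932) on their brightest probe sets. In order of level, Cxcl10 therefore ran from TNC + TLR4i through untreated to TNC + vehicle, with the lower step called. Cxcl11 did so on its brighter probe set only, with the lower step not called. For Cxcl9 and Cxcl16, untreated and TNC + TLR4i did not differ beyond their spread. Cxcl12 had no order that its probe sets shared. For Cxcl14 the TNC + TLR4i mean was above the untreated one, and TNC + vehicle overlapped both groups.

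Cxcl9, Art3, Cxcl10 and Cxcl11 lie next to each other on chromosome 5 in the RefSeq table, in that order. Art3, an ADP-ribosyltransferase family gene whose annotated span overlaps Cxcl10 and Cxcl11, read 0.09 ± 0.09 higher with TNC (adjusted p = 0.518). The nearest measured genes on the Cxcl9 side were Sdad1, a gene linked to ribosome assembly, the amidase gene Naaa and the phosphatase gene Ppef2. Sdad1 rose by 0.76 ± 0.08 (adjusted p = 2.04e-05) and differed by -1.02 between TNC + TLR4i and TNC + vehicle (adjusted p = 7.02e-07), while Naaa and Ppef2 differed with TNC by 0.09 and 0.04. On the Cxcl11 side the nucleoporin gene Nup54 differed by 0.32 (adjusted p = 0.00651), the lysosomal receptor gene Scarb2 by -0.43 (adjusted p = 0.00033) and Fam47e by 0.02, all under the fold threshold. The rises of about 4 log2 units were thus seen at the 3 chemokine genes and at none of the 7 others measured here.

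**Figure D3:**
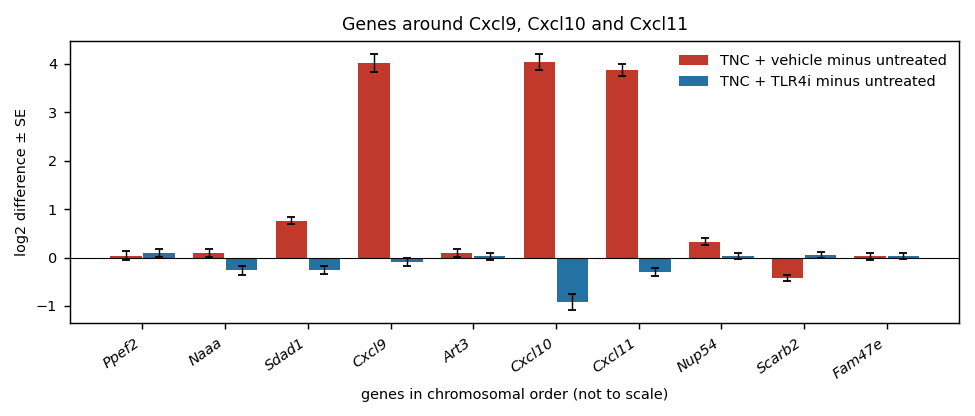
log2 difference from untreated, with SE, for Cxcl9, Cxcl10, Cxcl11 and the genes around them in chromosomal order (not to scale), for TNC + vehicle and for TNC + TLR4i. The 3 chemokines stand at 3.88 to 4.04 with TNC, Sdad1 at 0.76, and the other genes between -0.43 and 0.32.

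Promoter sequence was read where it was available and is printed below for Cxcl9, Cxcl10 and Cxcl14. Cxcl14 and Cxcl12 were both called in none of the 3 comparisons, and the sequence of Cxcl12, which held no match, is not printed. RefSeq windows of the 250 bases before the annotated start (build GRCm38.p6) were found for 4 of the 6 genes, all except Cxcl11 and Cxcl16. Both strands were searched for 3 motifs: the core of the interferon-stimulated response element, GAAANNGAAA, bound by interferon regulatory factors and STAT complexes, the interferon gamma-activated site TTCNNNGAA, bound by STAT dimers, and the NF-kB consensus. In capitals below are the matches. The Cxcl9 window, chr5:92328080-92328329 on the minus strand, had no match to any of the 3, and the Cxcl10 window, chr5:92348890-92349139 on the minus strand, had 1 response element core and 3 NF-kB matches, of which 2 overlap. The Cxcl14 window, chr13:56296552-56296801 on the minus strand, had 1 interferon gamma-activated site followed by 1 response element core.
Cxcl9: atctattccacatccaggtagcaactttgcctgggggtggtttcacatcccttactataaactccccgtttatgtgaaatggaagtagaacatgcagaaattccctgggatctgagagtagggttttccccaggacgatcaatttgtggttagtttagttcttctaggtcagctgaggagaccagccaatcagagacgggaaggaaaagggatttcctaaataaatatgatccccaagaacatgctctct
Cxcl10: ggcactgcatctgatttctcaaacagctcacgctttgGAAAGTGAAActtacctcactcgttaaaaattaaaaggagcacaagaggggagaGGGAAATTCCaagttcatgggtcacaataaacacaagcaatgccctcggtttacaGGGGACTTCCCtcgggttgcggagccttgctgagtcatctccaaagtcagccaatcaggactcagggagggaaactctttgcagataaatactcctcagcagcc
Cxcl14: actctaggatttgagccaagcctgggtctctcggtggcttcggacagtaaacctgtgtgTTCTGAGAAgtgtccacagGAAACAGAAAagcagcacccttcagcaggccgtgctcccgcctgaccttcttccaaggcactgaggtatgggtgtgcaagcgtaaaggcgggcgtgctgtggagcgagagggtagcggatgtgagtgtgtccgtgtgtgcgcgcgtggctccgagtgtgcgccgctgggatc

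In Cxcl10 the response element core lay at -213 to -204 from the start, the first NF-kB match at -159 to -150 and the overlapping pair at -104 to -95 and -103 to -94. In Cxcl14 the interferon gamma-activated site lay at -191 to -183 and the response element core at -172 to -163. The Cxcl12 window held none of the 3 motifs. Of 32851 windows of the same length, 2.98% held the response element core, 7.02% the interferon gamma-activated site and 7.25% the NF-kB consensus, and 0.164% held both the response element core and the NF-kB consensus, as Cxcl10 did. With TNC, Cxcl10, with 4 matches of which 2 overlap, and Cxcl9, with no match, were called higher. Cxcl14, with 2 matches, and Cxcl12, with no match, were not called. Whether the motifs bear on these changes was not tested. A match describes letters, not a bound site, and its absence says only that these letters are not in the window.

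**Figure D4:**
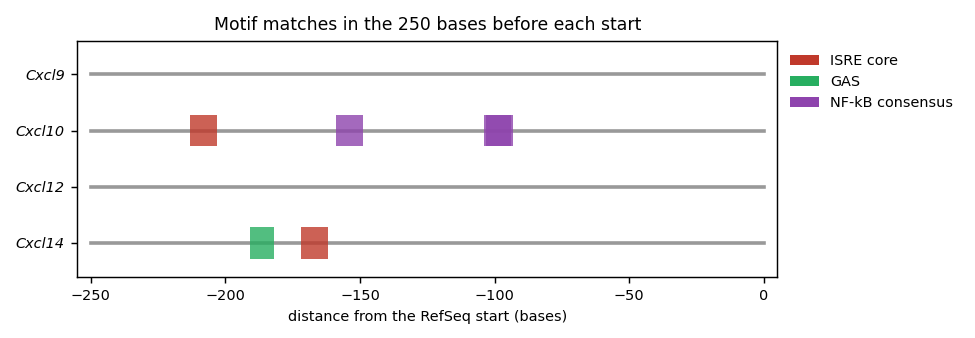
Positions of motif matches in the 250 bases before the RefSeq start of 4 of the chemokine genes, with distance from the start in bases on the horizontal axis. Boxes mark the response element core (ISRE), the interferon gamma-activated site (GAS) and the NF-kB consensus. Cxcl10 has 4 matches and Cxcl14 has 2, and none was found for Cxcl9 and Cxcl12.

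Among the receptors of these ligands, 1 of 4 was called lower with TNC and 0 higher by limma (0 at an unadjusted p under 0.05). The called one was Cxcr4, the Cxcl12 receptor, which read 11.67, 11.75 and 11.76 in untreated arrays, 10.85, 10.16 and 10.40 in TNC + vehicle and 12.23, 12.22 and 12.28 in TNC + TLR4i. The 3 groups did not overlap. Cxcr4 fell by 1.26 ± 0.14 with TNC (adjusted p = 3.01e-05), was 1.77 ± 0.13 higher with TLR4i than with TNC + vehicle (adjusted p = 1.05e-06), and stood 0.52 ± 0.06 above untreated with TLR4i (adjusted p = 0.00311), under the fold threshold. In size of change, not in level, the receptor gene differed by more than its ligand gene Cxcl12 in all 3 comparisons, a difference that was not tested.

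The other receptors are named after their values were seen. Cxcr3, the receptor of Cxcl9, Cxcl10 and Cxcl11, read 7.34, 7.13 and 7.16 in untreated and 6.72, 6.69 and 6.54 in TNC + vehicle arrays, a difference of -0.56 ± 0.08 (adjusted p = 0.000293) that was just short of the fold threshold. Cxcr6, the receptor of Cxcl16, differed by 0.04 ± 0.10 (adjusted p = 0.812). Ackr3, a scavenging receptor for Cxcl11 and Cxcl12, read 6.03 and 6.33 in TNC + vehicle replicates 2 and 3 but 7.71 in replicate 1, and its difference was 0.56 ± 0.31 (adjusted p = 0.252). The high reading was on the array with raised endothelial markers.

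Of 7 proteases known to trim or shed these chemokines, limma called 2 higher with TNC and 0 lower (2 at an unadjusted p under 0.05). Mmp14, a membrane-anchored metalloprotease that can cut Cxcl12, rose from 9.17, 9.15 and 9.25 to 11.48, 11.76 and 11.67 (2.44 ± 0.08; adjusted p = 3.57e-09), and Mmp9, a gelatinase, rose by 0.97 ± 0.10 (adjusted p = 1.53e-05). With TLR4i 3 of the 7 were called lower than in TNC + vehicle: Mmp14 by -2.41 ± 0.08, Mmp9 by -0.95 ± 0.09 and Adam17 by -0.61 ± 0.07 (adjusted p = 5.42e-05). The sheddases of Cxcl16, named after their values were seen, went in opposite directions with TNC and under the fold threshold, Adam17 by 0.45 ± 0.07 (adjusted p = 0.000385) and Adam10 by -0.27 ± 0.07 (adjusted p = 0.0192). Dpp4, which trims the first residues of Cxcl9, Cxcl10, Cxcl11 and Cxcl12, differed by -0.03 ± 0.08 (adjusted p = 0.827).

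Of 14 measured genes among 15 listed interferon ligands, receptors and JAK-STAT components, 5 were called higher and 1 lower with TNC, with a list median of 0.35 against 0.01 for all genes. The largest changes were in Usp18, a negative regulator of the type I interferon receptor (2.12 ± 0.13; adjusted p = 3.57e-07), Stat2, a subunit of the factor that binds the response element (1.91 ± 0.11; adjusted p = 1.6e-07), and Socs3, a cytokine signalling inhibitor (1.77 ± 0.09; adjusted p = 6.7e-08). With TLR4i 5 of the 14 were called lower than in TNC + vehicle and 1 higher, and Usp18 and Stat2 changed by -3.12 ± 0.11 and -2.43 ± 0.09. The interferon genes themselves, named after their values were seen, were not called. Ifnb1 read 6.35, 6.45 and 6.31 in untreated and 6.52, 6.51 and 6.62 in TNC + vehicle arrays (0.18 ± 0.07; adjusted p = 0.0807), and Ifng differed by -0.07 ± 0.07 (adjusted p = 0.501). Between TNC + TLR4i and TNC + vehicle, Ifnb1 differed by -0.24 ± 0.07 without overlap (adjusted p = 0.0183), under the fold threshold. Ifng differed there by 0.13 ± 0.08 (adjusted p = 0.301). These are signals below the array median after 6 h, and earlier times were not analysed here.

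In TNC + TLR4i against untreated, Usp18 was the only 1 of those 14 genes called, and like Cxcl10 it was lower. It read 9.95, 10.56 and 10.41 in untreated and 9.18, 9.57 and 9.16 in TNC + TLR4i arrays, so that its mean went from 10.31 to 9.31 (SE of the difference 0.14; adjusted p = 0.00678), while Stat2 differed by -0.52 ± 0.11 (adjusted p = 0.0655). Both genes were without overlap between these groups. limma called 0 of the 14 higher here, also at an unadjusted p under 0.05.

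Of 10 measured among 12 listed genes of the TLR4 receptor complex and its TRIF branch, limma called 4 higher and 0 lower with TNC (3 lower at an unadjusted p under 0.05), with a median of 0.26. The largest were the interferon regulatory factor genes Irf7 (1.33 ± 0.13; adjusted p = 1.71e-05) and Irf1 (1.32 ± 0.07; adjusted p = 1.53e-07) and the kinase gene Ikbke (0.88 ± 0.07; adjusted p = 3e-06). Of 9 measured among 10 listed NF-kB subunits and inhibitors, limma called 5 higher and, in the other direction, 0 (1 before adjustment, at p under 0.05), with a median of 0.76. The inhibitor Nfkbie (1.80 ± 0.07; adjusted p = 9.17e-09) and the subunits Nfkb2 (0.98 ± 0.08; adjusted p = 3.38e-06) and Relb (0.91 ± 0.06; adjusted p = 1.01e-06) led. With TLR4i 4 of the first list and 5 of the second were called lower than in TNC + vehicle. In neither list did limma call a gene in TNC + TLR4i against untreated (3 lower in each at an unadjusted p under 0.05).

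Of the 9 other CXC chemokines, 4 were called higher and 1 lower with TNC, with a median of 0.44. The largest rises were in the neutrophil attractants Cxcl3 (3.53 ± 0.10; adjusted p = 9.69e-10), Cxcl2 (3.43 ± 0.09; adjusted p = 7.56e-10) and Cxcl1 (1.97 ± 0.09; adjusted p = 2.94e-08). With TLR4i Cxcl3, Cxcl2 and Cxcl1 changed by -3.72 ± 0.09, -3.71 ± 0.09 and -2.35 ± 0.11 from TNC + vehicle, and against untreated they differed by -0.19, -0.28 and -0.37, none of them called. Cxcl5, named after its values were seen, was the 1 called lower with TNC (-0.62 ± 0.12; adjusted p = 0.00245) and was also called lower in TNC + TLR4i against untreated (-0.75 ± 0.13; adjusted p = 0.0263).

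**Figure D5:**
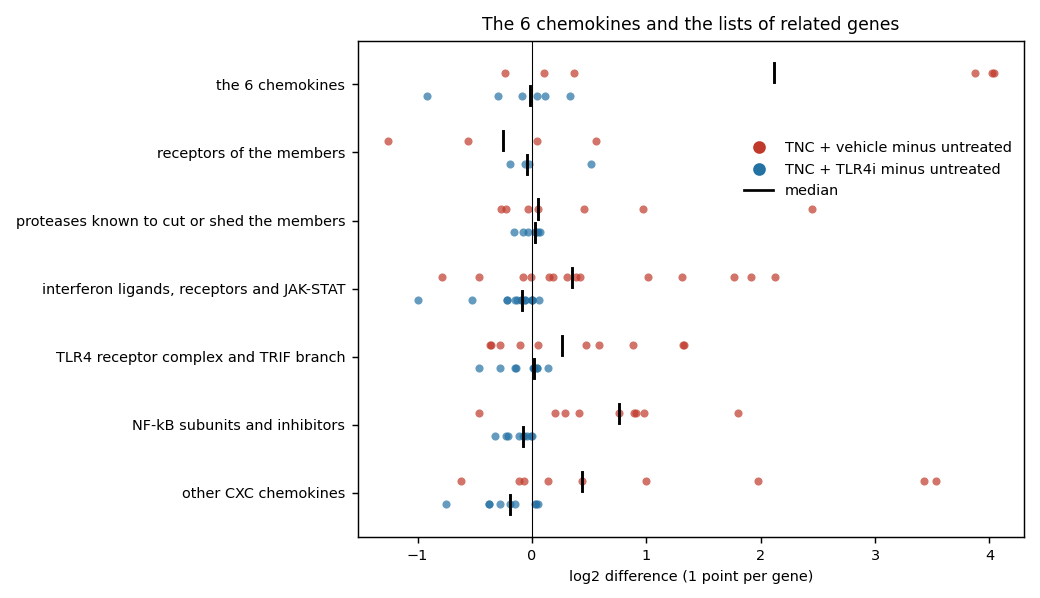
log2 difference from untreated for each measured gene of the 6 chemokines and of the 6 related lists, with TNC + vehicle and with TNC + TLR4i, and the median of each as a vertical bar. With TNC the medians run from -0.26 for the receptors to 2.12 for the 6 chemokines, and with TNC + TLR4i they lie between -0.19 and 0.03.

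Likeness to each called ligand was measured as the mean absolute difference over the 9 arrays after each gene's untreated mean was subtracted, and it is a description of these arrays only. Nearest to Cxcl9 were Gpr84, a receptor for medium-chain fatty acids (0.119), Cxcl11 (0.163) and the cytokine gene Il1b (0.177). Nearest to Cxcl11 were the costimulatory receptor gene Cd40 (0.0954), the activation marker Cd69 (0.138) and Il1b (0.147). Nearest to Cxcl10 were the monocyte attractant Ccl12 (0.217) and the guanylate-binding protein genes Gbp2b (0.250) and Gbp3 (0.298). Against untreated, TNC + TLR4i stood at -0.66 for Ccl12, -0.58 for Gbp2b and -0.92 for Gbp3, and at -0.06 for Gpr84, -0.28 for Cd40, -0.26 for Cd69 and -0.34 for Il1b. These genes were picked for likeness on the same arrays, so no contrast between them is drawn.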

How the data were processed

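The authors hybridised total RNA from the 9 cultures to Affymetrix 3′ expression arrays, normalised them by RMA in Chipster 3.8.0 and deposited log2 values for each probe set on each array, which were used as given. RMA applies quantile normalisation, so a change of total RNA would not be seen, and no detection call was used. Of 45101 rows, 64 array controls were left out. The platform table gave 34945 probe sets 1 gene, 932 several and 9160 none, and a gene was represented by its brightest probe set over the 9 arrays.

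Each comparison used limma 3.58.1 under R 4.3.3 with only its own 6 arrays, through lmFit and eBayes, two-sided, without a replicate block, with Benjamini-Hochberg adjustment over 45037 probe sets. Called genes had an adjusted p under 0.05 and a 1.5-fold change. The fit was tested on simulated data. The number of arrays limits the precision. Named genes were the 6 chemokines, up to 3 called genes with the largest TNC change per list, the 3 nearest in pattern and the chromosomal neighbours, and others are marked. The members, lists and rules were chosen with earlier results of these data known. Motifs were searched with Python 3.11.15 in RefSeq windows. The alternatives tried were a single fit of all arrays, a replicate block, a filter on dim probe sets, cyclic loess, median centring, eBayes trend and robust, array weights, averaged probe sets per gene, other thresholds and each array left out.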

Additional observations from a re-analysis of the deposited data

How the results depend on the processing

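Each of the 6 chemokines was recomputed under 17 alternatives per comparison, 6 of which left out 1 array each. Cxcl9, Cxcl10 and Cxcl11 were called with TNC and in TNC + TLR4i against TNC + vehicle under all 17, with rises of 2.80 to 4.30, 3.84 to 4.24 and 2.66 to 4.04 and differences of -4.39 to -2.86, -5.12 to -4.86 and -4.34 to -2.81. The fall of Cxcl10 in TNC + TLR4i against untreated was called under 9 of 17, with differences of -1.12 to -0.72 and adjusted p of 0.00177 to 0.403. The count of genes called lower there was 0 instead of 1 with trend and robust eBayes (adjusted p = 0.403), with probe sets averaged per gene (adjusted p = 0.0681), at an adjusted p under 0.01 and at a minimum fold of 2, and it ranged from 0 to 1 when arrays were left out in turn. The count lower with TNC was 1 (Cxcl12) without a minimum fold. Cxcl12 changed sign with TNC when its probe sets were averaged (0.018). In TNC + TLR4i against untreated it ranged from -0.047 (without TNC + TLR4i replicate 3) to 0.24 (without TNC + TLR4i replicate 1), and was not called. Deviations of arrays with the same replicate number correlated at -0.10 to 0.14 over 9 pairs, which does not show that the numbers pair the cultures. With the replicate block the TNC rises were 4.02, 4.04 and 3.88, Cxcl10 in TNC + TLR4i against untreated kept its call (-0.92; adjusted p = 0.00177), and no call changed. With 3 arrays a group, the Cxcl10 call in TNC + TLR4i against untreated held in 2 of 6 fits that left out an array, and dim signals near the RMA floor understate folds.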
